A study of Rattus norvegicus with 6 samples.

Results

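Keratins and claudins are the 2 large gene families that build the inner scaffold and the outer seal of epithelial cells. Keratins are intermediate filament proteins, and a filament always pairs a type I with a type II keratin, so that the pair in use marks the kind of epithelium. Claudins span the membrane at tight junctions, where their mixture sets how leaky the sheet is and to which ions, and endothelium and some supporting cells of the gonads carry claudins of their own. In the ovary simple epithelial keratins are known from the surface epithelium and the early follicle cells, and the same genes are used by the neighbouring oviduct. Members were every gene whose symbol begins with Krt or Cldn followed by a digit. Of the 15154 genes that could be named on the array, 69 met this rule, with 74 probes between them, and comprised 24 type I keratins, 20 type II keratins and 25 claudins. The rule used names only, not measured values, and 94 symbols in the RefSeq table matched it in all.

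The arrays held RNA of whole ovaries of Wistar rats at PND 7 (postnatal day 7). Pups had been injected into the peritoneum on PNDs 3 and 5 with LPS, a wall component of gram-negative bacteria that triggers innate immunity, at 0.05 mg/kg (Salmonella enterica), or with as much saline, and there were 3 arrays of each treatment with 1 colour each. Study methods describe biological replicates and 5 animals per treatment from a pair of litters per treatment, but the labels do not tie arrays to animals or litters, so the spread between arrays may in part reflect litters. In the text a level is the log2 signal of a gene's brightest probe minus the 75th percentile of its array, so that 0 is the level of a fairly bright probe and 1 unit is 2-fold. Levels of different genes are not set against each other, since probes differ in brightness for the same amount of RNA.

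Across the arrays, the 75th percentile of the signal ranged from 2823.9 to 6753.8 units and 66.3% to 76.0% of spots were well above background, with no saturated spot. The number of arrays limits the precision. A pair of saline arrays stood apart from the others, since the 10 adrenal markers together summed to 221 and 250.4 on saline replicates 2 and 3, in units of the array's 75th percentile, against 3.01 to 6.07 on the other 4 arrays. All 10 of those markers were at least 2-fold lower in the LPS-treated group at an unadjusted p under 0.05. Saline replicates 1 to 3 and LPS replicate 1 shared 1 row of the slide, and the remaining LPS arrays were in the other.

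The upstream stretches of 6 members that the results turn on are shown first. Each is the 250 bases before the gene's start in RefSeq's rat assembly GRCr8, 5′ to 3′ on the gene's own strand, with capitals for every match to 5 short motifs searched on both strands. Krt8 (chr7:135010340-135010589, minus strand) and Krt18 (chr7:135035918-135036167, plus strand) are shown because they are neighbouring genes that encode the 2 partners of 1 filament.
Krt8: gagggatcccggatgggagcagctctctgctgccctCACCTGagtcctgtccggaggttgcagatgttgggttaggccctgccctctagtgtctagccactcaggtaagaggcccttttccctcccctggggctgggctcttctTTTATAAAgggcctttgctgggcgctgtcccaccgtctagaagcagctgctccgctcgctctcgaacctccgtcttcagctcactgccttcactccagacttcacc
Krt18: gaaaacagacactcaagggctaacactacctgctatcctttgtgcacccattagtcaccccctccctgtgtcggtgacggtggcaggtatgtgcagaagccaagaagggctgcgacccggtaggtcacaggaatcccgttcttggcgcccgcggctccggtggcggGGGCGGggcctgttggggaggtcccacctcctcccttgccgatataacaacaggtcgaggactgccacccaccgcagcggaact
Cldn3 (chr12:27346548-27346797, minus strand) and Cldn7 (chr10:55188420-55188669, plus strand) are claudins of simple epithelia that followed the replicate number in the same way as Krt8 and Krt18, and Cldn11 (chr2:114149540-114149789, minus strand) is a claudin that followed it the opposite way.
Cldn3: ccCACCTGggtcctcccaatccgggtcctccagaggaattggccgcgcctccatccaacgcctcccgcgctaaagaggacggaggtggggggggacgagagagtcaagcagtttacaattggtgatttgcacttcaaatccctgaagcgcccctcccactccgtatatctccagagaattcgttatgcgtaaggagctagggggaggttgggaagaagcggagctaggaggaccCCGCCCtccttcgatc
Cldn7: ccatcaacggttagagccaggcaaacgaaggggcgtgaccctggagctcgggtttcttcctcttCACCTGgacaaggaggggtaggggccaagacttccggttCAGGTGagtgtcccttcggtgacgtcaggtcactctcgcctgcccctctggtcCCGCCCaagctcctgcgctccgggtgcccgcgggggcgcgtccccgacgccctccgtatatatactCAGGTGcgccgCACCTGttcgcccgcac
Cldn11: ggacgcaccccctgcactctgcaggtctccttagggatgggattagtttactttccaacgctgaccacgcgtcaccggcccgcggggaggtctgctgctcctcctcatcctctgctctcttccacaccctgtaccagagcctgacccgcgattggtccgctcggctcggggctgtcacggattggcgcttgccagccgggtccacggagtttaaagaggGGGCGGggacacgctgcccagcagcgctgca
Krt27 (chr10:84800132-84800381, minus strand) is the keratin that passed the 2-fold criterion.
Krt27: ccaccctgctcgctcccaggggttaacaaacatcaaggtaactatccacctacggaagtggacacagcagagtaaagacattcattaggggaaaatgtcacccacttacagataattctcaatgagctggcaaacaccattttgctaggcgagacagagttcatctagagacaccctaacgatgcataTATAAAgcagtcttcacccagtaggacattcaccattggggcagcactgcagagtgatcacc

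The motifs were the TATA box (TATAAA), the GC box bound by Sp proteins (GGGCGG), the E-box bound by Snail-type repressors of epithelial genes (CACCTG), an AP-1 site (TGANTCA) and a grainyhead-like site (AACCGGTT). The table held a sequence for 53 of the 69 members. A TATA box stood in 18 of these 53 (34.0%), against 12.9% of 33469 rat promoters of the same length. The GC box stood in 26.4% of members and 30.5% of all, the E-box in 20.8% and 15.9%, the AP-1 site in 5.7% and 6.3%, and the grainyhead-like site in 0 of the 53 and 0.1% of all. In the sequences above, Krt8 has 2 overlapping TATA matches and 1 E-box, Krt18 and Cldn11 have 1 GC box each, Cldn3 has 1 GC box and 1 E-box, Cldn7 has 1 GC box and 4 E-boxes, and Krt27 has 1 TATA box. These are matches of letters in a fixed window and describe the sequence only.

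Of the 69 genes, 35 were well above background on all 6 arrays (15 claudins and 10 keratins of each type), 17 on some arrays and 17 on none. The keratins measured on all arrays comprised those of simple epithelium (Krt7, Krt8, Krt18, Krt19 and Krt20), the basal and mucosal keratins Krt4, Krt13, Krt14 and Krt15, the hair follicle and skin keratins Krt2, Krt6c, Krt9, Krt17, Krt25, Krt33b, Krt75, Krt81 and Krt85, and Krt87 and Krt88. For Krt6c this holds for its brightest probe, while its other probes were well above background on no array. Krt1 and Krt16, of the upper layers of skin, were well above background on no array, and Krt5, the partner of Krt14, on all LPS arrays and 1 saline array. Among claudins, Cldn14 of the inner ear and Cldn16 of the kidney were on no array well above background.

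**Figure D1:**
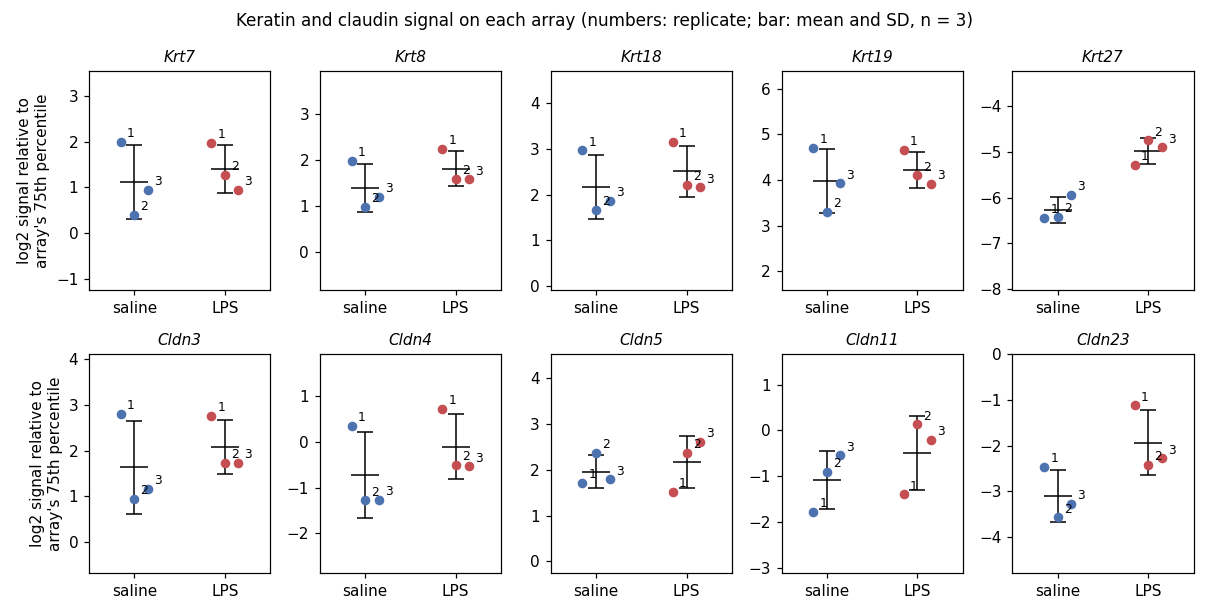
Level of 10 keratins and claudins (log2 signal minus the array's 75th percentile, vertical axes of equal length) on the 3 saline arrays in blue and the 3 LPS arrays in red, with replicate numbers beside the points and the mean and SD as bars. Only Krt27 and Cldn23 have groups that do not overlap, and in the simple epithelial genes replicate 1 is the highest of both treatments.

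Between treatments, 2 of the 69 genes were at least 2-fold higher in the ovaries of LPS-treated animals at an unadjusted p under 0.05, Cldn23 and Krt27, and 0 were as much lower. Of all named genes 0.594% were called higher and 1.17% lower by the same criterion. After adjustment over all probes, 0 of the 69 passed in limma, as did 0% of named genes. An unadjusted p under 0.05 was reached in limma by 9 of the 69 and by 2366 of all 15154 named genes. With a plain analysis of variance, which the study names for its data in general, 5 of the 69 reached it. Of the 9 in limma, 7 were lower and well above background on no array.

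Cldn23 encodes a claudin known from the gut epithelium. Its level was -1.11, -2.41 and -2.27 on LPS replicates 1, 2 and 3 and -2.46, -3.57 and -3.27 on saline replicates 1, 2 and 3. The groups did not overlap, and in both treatments replicate 1 was the highest. Its log2 fold change was 1.17 ± 0.435 (SE, adjusted p = 0.280 by limma), and the two-sided exact permutation test gave p = 0.1, the smallest that 3 against 3 arrays allow. Within the same replicate number LPS was higher by 1.35, 1.15 and 1.00, and with the number as a block the standard error fell to 0.154 and the adjusted p to 0.167. The 2-fold call at an unadjusted p under 0.05 was lost without LPS replicate 1 (log2 fold change 0.76), without saline replicate 2 (0.93) and without saline replicate 3 (1.08), without both of the saline arrays with adrenal transcripts (0.53), with normexp background correction (0.76) and, at the same fold change, with a plain analysis of variance. In the slide row that held both treatments it was 1.99, but the LPS side there is replicate 1 alone.

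Krt27, a type I keratin of the inner root sheath of hair, was dim. Its level was -5.29, -4.75 and -4.90 after LPS and -6.45, -6.42 and -5.94 after saline. The groups did not overlap, but the signal was well above background on 2 LPS arrays and 0 saline arrays. The fitted log2 fold change of 1.29 ± 0.231 (SE, adjusted p = 0.272) therefore compares LPS with saline arrays on which the probe was never well above background. With each saline level raised to the lowest well above background level of its array, the LPS mean was 1.36-fold higher. That figure has no standard error, and the LPS mean includes an array not well above background. The log2 fold change of Krt27 was 0.13 with normexp background correction and 0.98 for LPS replicate 1 alone against the saline arrays in its slide row, each of which ended the 2-fold call. Its neighbours in the same gene cluster, Krt26 and Krt28, encode related root sheath keratins. Krt26 was well above background on no array, and Krt28 on all LPS arrays and 0 saline arrays. The levels of Krt28 overlapped between treatments, at -3.97, -4.47 and -4.71 after LPS and at -4.98, -4.53 and -4.27 after saline (adjusted p = 0.867).

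The simple epithelial keratins had levels that overlapped between treatments. Krt8, the type II partner of the pair, was at 2.25, 1.60 and 1.58 on LPS replicates 1, 2 and 3 and at 1.99, 0.98 and 1.20 after saline. Krt18, its type I partner, was at 3.15, 2.21 and 2.15 after LPS and at 2.97, 1.67 and 1.86 after saline. Both were highest on replicate 1 of each treatment, and saline replicate 1 lay above LPS replicates 2 and 3. The log2 fold change was 0.42 ± 0.328 (SE, adjusted p = 0.670) for Krt8 and 0.34 ± 0.429 (SE, adjusted p = 0.859) for Krt18.

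Krt19, a small type I keratin of simple and ductal epithelia, was at 4.66, 4.10 and 3.91 after LPS and at 4.70, 3.31 and 3.93 after saline. Krt7, a type II keratin of ducts and of the genital tract, was at 1.97, 1.28 and 0.94 after LPS and at 1.99, 0.40 and 0.95 after saline. In both genes the pair of replicate 1 arrays was nearly level between treatments and saline replicate 2 was the lowest of the 6. Their log2 fold changes were 0.25 ± 0.387 (SE) and 0.28 ± 0.456 (SE). Krt20, of gut and urinary epithelium, ranged from -1.94 to -1.11 after LPS and from -2.14 to -1.25 after saline, with a log2 fold change of 0.18.

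The basal and mucosal keratins also had levels that overlapped between treatments. Krt13, of moist stratified epithelia, was at -1.42, -2.02 and -2.56 after LPS and at -1.25, -3.23 and -2.50 after saline, a log2 fold change of 0.33 ± 0.536 (SE). Krt14, the basal cell type I keratin, had a log2 fold change of 0.06, Krt15, also of basal cells, of 0.19, and Krt17, of hair follicles and stressed skin, of 0.47. In all 4 genes replicate 1 was the highest of each treatment. Their standard errors of 0.371 to 0.536 reflect that spread between replicates.

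Among the barrier-forming claudins of simple epithelia, Cldn3 was at 2.76, 1.74 and 1.74 on LPS replicates 1, 2 and 3 and at 2.81, 0.95 and 1.16 after saline. Cldn4, which lies beside Cldn3 in the genome, was at 0.72, -0.50 and -0.53 after LPS and at 0.36, -1.28 and -1.27 after saline. Cldn7 was at 2.26, 1.45 and 1.42 after LPS and at 2.14, 0.90 and 1.15 after saline. In these 3 genes saline replicate 1 stood with LPS replicate 1, and replicates 2 and 3 of both treatments lay below them. The log2 fold change was 0.44 ± 0.548 (SE) for Cldn3, 0.63 ± 0.549 (SE) for Cldn4 and 0.32 ± 0.390 (SE) for Cldn7, and none had an adjusted p under 0.728 in limma. Cldn1, the main claudin of the skin barrier, ranged from -1.77 to -0.75 after LPS and from -2.14 to -1.18 after saline, with a log2 fold change of 0.28.

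Cldn6 and Cldn9 are neighbouring genes best known from embryonic and newborn epithelia. Cldn6 was at 0.41, -0.40 and -0.70 after LPS and at -0.64, -1.62 and -0.94 after saline, a log2 fold change of 0.84 ± 0.371 (SE, adjusted p = 0.324). LPS replicate 3 lay below saline replicate 1, so the groups overlapped. Cldn9 had a log2 fold change of 0.19 ± 0.383 (SE). Cldn8, known from the collecting duct of the kidney, was at -0.97, -2.96 and -2.58 after LPS and at -2.21, -3.68 and -3.00 after saline. LPS replicate 1 was far above the other 5 arrays, and the log2 fold change of 0.80 had a standard error of 0.595. Cldn22 and the channel-forming Cldn10 had log2 fold changes of 0.63 ± 0.520 (SE) and 0.22 ± 0.467 (SE).

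Claudins of other cell types took another course over the arrays. Cldn5, the claudin of vascular endothelium, was at 1.53, 2.38 and 2.61 after LPS and at 1.72, 2.38 and 1.79 after saline. Cldn11, known from myelin and from the Sertoli cells that line the seminiferous tubules, was at -1.40, 0.14 and -0.20 after LPS and at -1.78, -0.91 and -0.55 after saline. Here replicate 1 was the lowest of each treatment. Their log2 fold changes were 0.21 ± 0.336 (SE) and 0.59 ± 0.482 (SE), with groups that overlapped. Cldn12 shared that order over the arrays and had a log2 fold change of 0.53 ± 0.322 (SE), but its other probe, on no array well above background, was lower in the LPS-treated group, with a mean of -7.21 against -6.55, and the mean of both probes had a log2 fold change of -0.07.

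Over the 35 genes measured on all arrays, the log2 fold change was positive in 30 and negative in 5, and ranged from -0.09 to 1.17. Of the 10012 named genes so measured, 5368 were positive. The members share the same arrays, so the 30 are not separate observations. The median was 0.28, against 0.02 over all 10012 named genes so measured, and was 0.44 in claudins, 0.22 in type I and 0.14 in type II keratins. Over all 69 members, dim ones included, the median was 0.171. It turned to -0.072 without LPS replicate 1 and to -0.014 without saline replicate 2. It was -0.337 without saline replicates 2 and 3 together and -0.002 with normexp. The median of all probes fell as well, from -0.039 to -0.133, -0.073, -0.154 and -0.088 in the same order. Under the other alternatives the members' median stayed positive. In 1 of the 35, Cldn23, every LPS array was higher than every saline array, and in 0 was every one lower. Among all named genes so measured the shares were 5.88% and 6.88%. The largest standard error, 0.595, belonged to Cldn8 and the smallest, 0.165, to Cldn18, a claudin of stomach and lung.

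**Figure D2:**
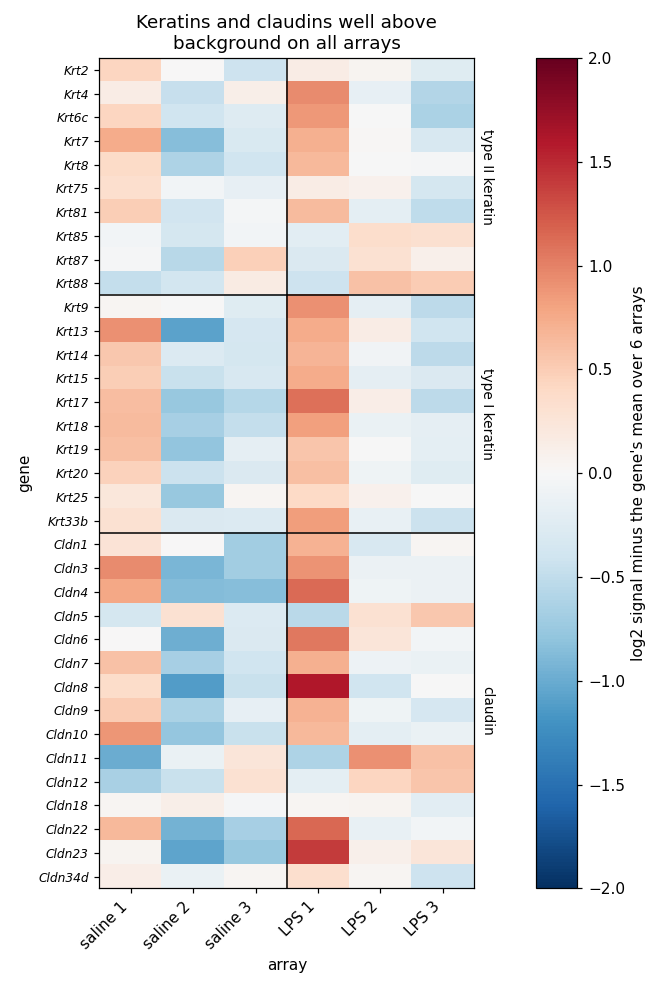
Heat map of the 35 genes well above background on all arrays, in rows by family, and the 6 arrays in columns, with saline left and LPS right of the line. Colour is the log2 signal minus the gene's mean over the arrays, and the saline 1 and LPS 1 columns are red in most rows, while Cldn5, Cldn11, Cldn12 and Krt88 are blue there.

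The members' levels followed the replicate number, which both treatments share. Replicate 1 was the highest array of both treatments in 28 of the 35 genes (11 claudins, all 10 type I and 7 type II keratins), against 26.5% of all named genes well above background on all arrays. It was the lowest in both in 4, Cldn5, Cldn11, Cldn12 and Krt88, against 27.3% of all. Over the 35 genes, the median excess of replicate 1 over the mean of replicates 2 and 3 was 0.86 in the LPS group and 0.76 in the saline group. Over all named genes so measured it was -0.04 and 0.01. Among claudins the excess reached 1.80 for Cldn8 in the LPS group and 1.75 for Cldn3 in the saline group, and among keratins 1.32 for Krt4 in the LPS group and 1.62 for Krt13 in the saline group. These counts describe 1 array per treatment and number, and were made after the pattern had been seen.

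**Figure D3:**
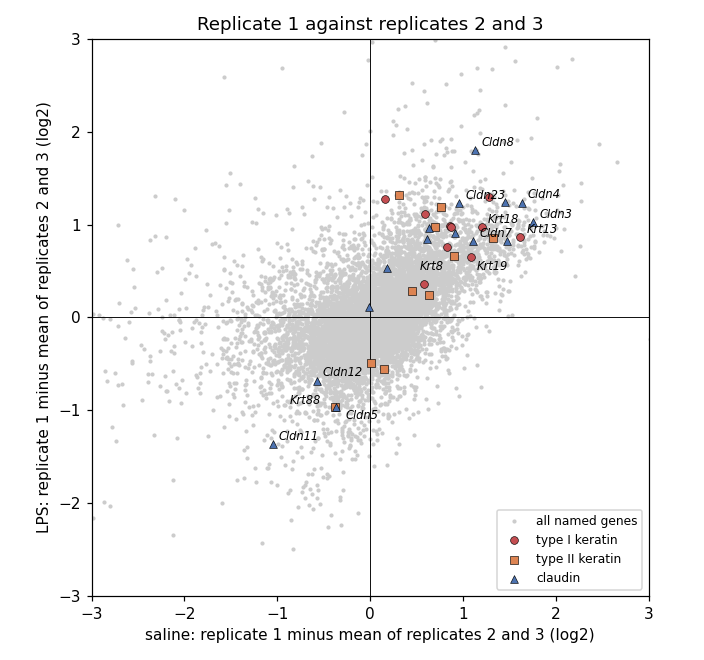
Excess of replicate 1 over the mean of replicates 2 and 3 (log2) in the saline group (horizontal) and the LPS group (vertical) for 10012 named genes well above background on all arrays in grey, of which 45 lie beyond the axes, and for the 35 keratins and claudins in colour. Most members lie in the upper right, and Cldn5, Cldn11, Cldn12 and Krt88 in the lower left.

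Same-numbered arrays deviated together over the whole array, so the numbers were also fitted as a block. This left the fold changes as they were and lowered the median standard error of the 35 genes from 0.374 to 0.204. With the block, 8 of the 35 were higher in the LPS-treated group at an unadjusted p under 0.05, against 3.34% of named genes so measured and 1 of the 35 without the block. They comprised the claudins Cldn4, Cldn6, Cldn8, Cldn11, Cldn12, Cldn22 and Cldn23 and the keratin Krt8. Their adjusted p lay between 0.167 and 0.234, so that none passed after adjustment. The block was taken from these same data, and the members followed the replicate number more often than named genes at large. The 8 against 3.34% is therefore no separate measure of a treatment difference. Within replicate numbers 1, 2 and 3, LPS exceeded saline by 0.26, 0.62 and 0.38 for Krt8, by 0.36, 0.78 and 0.74 for Cldn4 and by 0.49, 0.80 and 0.61 for Cldn22. LPS was above saline in every number for 14 of the 35 genes, the 8 included by the way they were selected, against 18.6% of all named genes so measured.

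**Figure D4:**
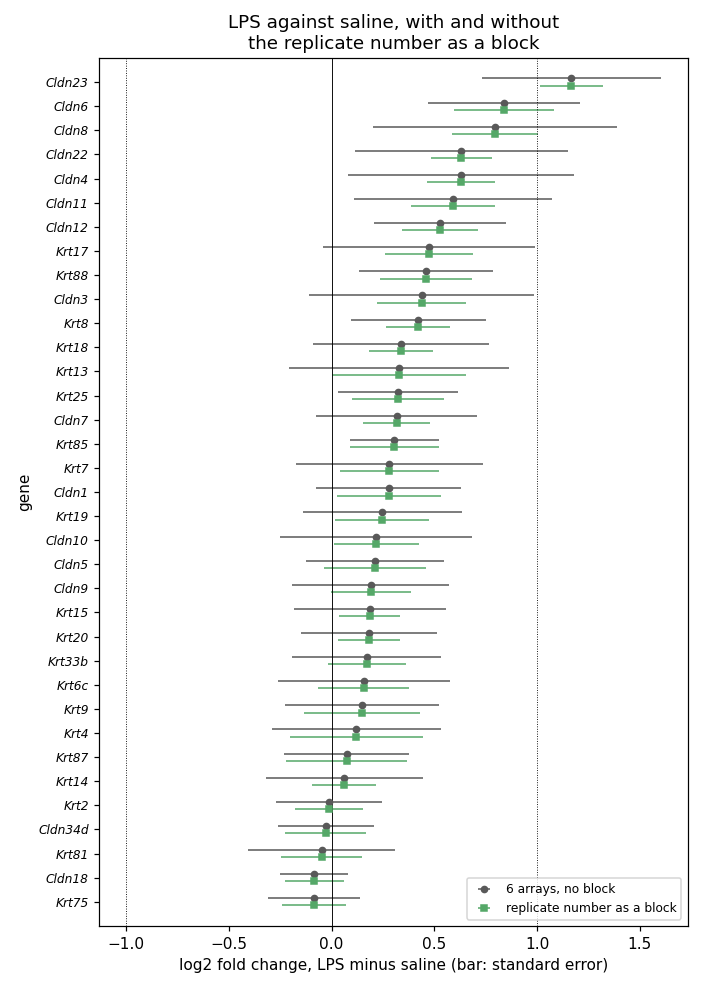
Log2 fold change, LPS minus saline (horizontal), of the 35 genes well above background on all arrays, with standard errors as bars, from the fit without (grey circles) and with (green squares) the replicate number as a block. The block leaves each value in place and shortens its bar, and only Cldn23 lies beyond the dotted line at 2-fold.

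Within each number, the median difference of LPS minus saline over the 35 genes was 0.18 in replicate 1, 0.57 in replicate 2 and 0.06 in replicate 3, and LPS was higher in 24, 32 and 20 of them. Without saline replicates 2 and 3, which leaves saline replicate 1 alone on that side, 16 of the 23 members with a printed log2 fold change had the opposite sign, down to -0.77 for Cldn10. That fit sets all LPS arrays against a replicate 1 array, and replicate 1 was the highest of both treatments in 28 of the 35 genes. Treatment and replicate number therefore cannot be told apart in those signs. The adrenal markers summed to 5.93, 3.775 and 3.01 on LPS replicates 1, 2 and 3, against 221 and 250.4 on saline replicates 2 and 3. Whether the adrenal transcripts on those saline arrays have a part in the differences was not tested.

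The other genes of the same structures were taken from fixed lists. Of 18 tight junction partners with a probe, 14 were measured on all arrays and 0 were called in either direction. Ocln, which encodes the strand protein occludin, was at 0.78, -0.14 and -0.52 after LPS and at 0.53, -0.34 and -0.39 after saline, while Tjp1, the ZO-1 scaffold used by many cell types, was between 1.67 and 1.78 after LPS and between 1.52 and 1.67 after saline. Replicate 1 was the highest of both treatments for Ocln and for 5 of the 14 in all, and the lowest for 4, Tjp1 among them. Of the desmosome and hemidesmosome genes, through which keratin filaments are anchored, 0 of 11 were called, and 8 of the 9 measured on all arrays were highest on replicate 1. Perp, a desmosome protein, was at 1.99, 1.22 and 1.32 after LPS and at 1.81, 0.26 and 0.51 after saline. Of 13 other intermediate filament genes 1 was called, Prph of peripheral neurons, which was at -0.70, -0.50 and -0.73 after LPS and at -0.17, 1.53 and 0.11 after saline, and replicate 1 was highest for 1 of the 10 measured on all arrays. Of all named genes 1.17% were called lower. Prph, like Ina, which was not called, was highest on saline replicates 2 and 3, the arrays with adrenal transcripts. Whether those transcripts have a part in it was not tested.

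Markers of other cell types showed which transcripts moved with the members. Of the epithelial markers 9 of 10 measured on all arrays were highest on replicate 1 of both treatments, among them Epcam, at 2.91, 2.07 and 2.14 after LPS and at 2.77, 1.28 and 1.63 after saline. All 5 oviduct markers so measured (Foxj1, Pax8, Wnt7a, Pax2 and Msx2) were as well. Foxj1, which drives the making of motile cilia, was at 3.98, 2.97 and 2.98 after LPS and at 4.01, 2.46 and 2.83 after saline. Foxj1 and Pax8 are markers of the oviduct, a neighbour of the ovary at dissection, and Pax8 is also found in other ducts of the urogenital tract.

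Summed over the list, the oviduct markers came to 25.2, 12.9 and 13.3 on LPS replicates 1, 2 and 3 and to 24.6, 8.56 and 11.1 after saline, in units of the array's 75th percentile. In the same order of arrays, the keratins summed to 48.4, 31.2 and 27.9 and to 46.7, 19.4 and 26.6, and the claudins to 26.2, 18.8 and 19.1 and to 24.7, 14.0 and 13.9. All 3 sums were highest on both replicate 1 arrays and, on the saline side, the lowest or nearly so on replicate 2. The sums add signal that is not on a log scale, so the brightest probes set them. Among keratins these are mainly Krt19 and Krt18, and among oviduct markers Foxj1 and Pax8, so the sums largely repeat single genes. The epithelial markers summed to 39.5, 24.7 and 20.5 and to 36.7, 16.4 and 19.5. The part of oviduct or other epithelium in the members' levels was not tested, and in RNA of whole tissue fewer cells of a type and less RNA per cell cannot be told apart.

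Markers of follicle and vessel cells did not share this order. Replicate 1 was lowest in both treatments for 4 of 7 granulosa cell markers, 4 of 6 endothelium markers and 2 of 6 oocyte markers, and highest for 0 of them. The granulosa cell markers summed to 20.0, 70.9 and 49.2 after LPS and to 34.9, 37.5 and 60.0 after saline. Kdr, a receptor of vascular endothelium, was at 1.57, 1.91 and 1.98 after LPS and at 1.95, 2.51 and 2.44 after saline, with replicate 1 lowest as for Cldn5. Kidney and epidermis markers were highest on replicate 1 in 3 of 3 and 2 of 2 genes measured on all arrays, and summed to at most 1.48 and 0.565. Sums of different lists are not set against each other, since their probes and numbers of genes differ. In the oviduct list Hoxa11, a patterning gene of the genital tract, was the 1 gene called, at -2.06, -4.29 and -4.61 after LPS and at -5.37, -6.30 and -6.64 after saline, where it was well above background on 0 arrays. Its log2 fold change was 2.45 ± 0.703 (SE, adjusted p = 0.272 by limma). Set against raised saline levels as for Krt27, the LPS mean was 3.32-fold higher, and LPS replicate 1 lay far above the other LPS arrays.

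**Figure D5:**
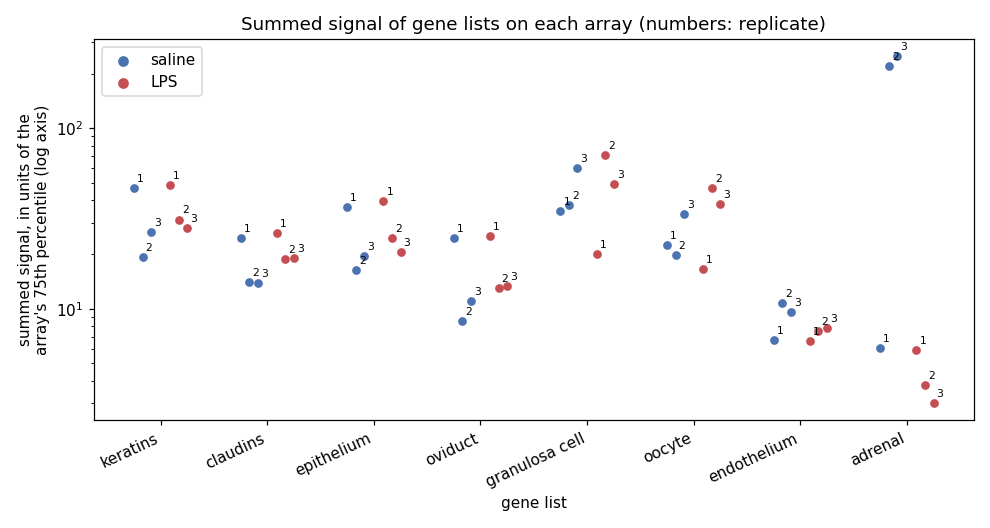
Summed signal of 8 gene lists on each array, in units of the array's 75th percentile on a log axis, with saline in blue, LPS in red and the replicate number beside each point. Keratins, claudins, epithelium and oviduct markers are highest on both replicate 1 arrays, granulosa cell markers are lowest there, and adrenal markers are at 221 and 250.4 on saline replicates 2 and 3 only.

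The 17 genes measured on some arrays included several keratins of hair. Krt33a was at -3.75, -4.17 and -1.75 after LPS and at -3.49, -4.21 and -4.07 after saline, with LPS replicate 3 alone far above the rest. Cldn34e was at -3.06, -2.49 and -2.95 after LPS and at -5.72, -2.38 and -2.26 after saline, with saline replicate 1 alone far below. Krt34, with a lower mean after LPS, was at -4.85, -4.27 and -4.61 after LPS and at -4.265, -2.65 and -4.65 after saline. Here saline replicate 2 alone was far above the rest. In each of these genes 1 array set the spread of its group. Cldn2, the cation pore of leaky epithelia, was well above background on 2 LPS arrays and 0 saline arrays. Its levels overlapped, at -4.75, -4.52 and -4.84 after LPS and at -4.59, -6.16 and -5.15 after saline (adjusted p = 0.577). Krt40, Krt73, Krt76, Krt77 and Krt80 were likewise well above background on 0 saline arrays and on 1 or 2 LPS arrays.

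The 17 genes well above background on no array lay between -7.63 and -4.73. They comprised 6 claudins and 11 keratins. A lower mean in the LPS-treated group was found in 14 of them, and in 2874 of the 3173 named genes that were equally dim. Of the 17, 7 were lower at an unadjusted p under 0.05 (Cldn14, Cldn17, Cldn20, Cldn34a, Krt16, Krt24 and Krt26), against 51.9% of the 3173 named genes that were equally dim. Their median log2 fold change was -0.49 and that of all such genes -0.58.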

How the data were processed

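Ovarian RNA was measured on 6 single-colour Agilent arrays, 3 per treatment, and arrays were grouped by the treatment in the labels. The authors deposited spot intensity values and flags from Agilent Feature Extraction 10.5.1.1, and a table of the whole series whose intensities equal the processed signal within 0.497%. Processed signal is background-subtracted. A normalization between arrays is not given in the sources used here, which also name lumi without its role. The criterion in the study is a 2-fold difference with a p below 0.05.

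Unflagged spots of a probe were averaged as log2 processed signal, the array's 75th percentile was subtracted, and limma 3.58.1 (R 4.3.3) was fitted over all 30367 non-control probes with Benjamini-Hochberg adjustment. Genes were called at a fold change of 2 or more with an unadjusted p under 0.05. The gene name column held 0 names, so 17998 probes were named through RefSeq accessions, and 3094 accessions did not match. Genes took their brightest probe. A probe counted as well above background on an array where at least 50% of its spots did, and a gene dim on a whole group got a bound. The bound set the other group's mean against the lowest well above background level of each dim array, or the gene's own level if higher. It has no standard error. Keratins are a family of close relatives, and probes were not checked for cross-hybridization.

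Arrays of the same replicate number deviated together from their group means (correlations of 0.298, 0.215 and 0.254 over 30364 probes for numbers 1, 2 and 3), and the pairing rests on these correlations. The procedure was tested on simulated data with independent noise on each array. That test does not cover the shared deviations of same-numbered arrays. Genes named in the text were those with every array of 1 treatment well above background, those called, 9 keratins and claudins fixed by name, and, of other lists, genes called without overlap or markers a result turned on. Of the genes named, Cldn2, Krt40, Krt73, Krt76, Krt77, Krt80 and those well above background on no array fall outside this and were named after their values were seen. Cldn15, Cldn19, Cldn34d, Krt31 and Krt36 had every LPS array well above background and so fall within it, but are named only here. The members and lists were chosen with earlier results of these data known. Alternatives covered background correction, normalization, the authors' table, dim and flagged probes, the choice of probe, the slide row, the replicate number, a plain analysis of variance and arrays left out.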

Additional observations from a re-analysis of the deposited data

How the results depend on the processing

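In limma 0 keratins or claudins passed after adjustment under any alternative. The 2 genes at least 2-fold higher became 1 with dim probes filtered out, 7 without normalization, 6 with the slide row as a block, 1 with a plain analysis of variance (Krt27, with Cldn23 lost), 0 with normexp and 1 to 6 with each array left out (lowest when saline replicate 2 was left out, highest when it was saline replicate 1). The 0 lower genes became 0 to 1 with arrays left out (Krt80, without LPS replicate 1). With the replicate number as a block 2 genes were called, Cldn23 and Krt27 again. Of 390 log2 fold changes of 23 genes under 17 alternatives, 335 kept direction and call. Leaving out normalization moved the median of all probes by 0.375, which the count of 7 includes: relative to it Cldn4, Cldn6, Cldn8 and Cldn22 lay between 0.63 and 0.84. A fit blocked on the slide row sets LPS replicate 1 alone against the saline arrays, so those calls and signs describe that 1 array. The cause was not tested.

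Signs turned with the slide row as a block for Cldn11 (-0.32) and Cldn5 (-0.43), with normexp for Krt14 (-0.002) and with the mean of a gene's probes for Cldn12 (-0.07). Leaving out saline replicates 2 and 3 sets all LPS arrays against saline replicate 1 alone, so signs there also carry the replicate number. Without saline replicates 2 and 3, where the lone saline array is assumed to vary like the LPS arrays, log2 fold changes turned to -0.13 for Cldn1, -0.77 for Cldn10, -0.34 for Cldn22, -0.73 for Cldn3, -0.46 for Cldn4, -0.43 for Cldn7, -0.42 for Cldn9, -0.75 for Krt13, -0.51 for Krt14, -0.40 for Krt15, -0.38 for Krt17, -0.47 for Krt18, -0.48 for Krt19, -0.37 for Krt20, -0.60 for Krt7 and -0.18 for Krt8. With each array left out in turn they ranged from -0.001 to 0.51 for Cldn1, -0.11 to 0.71 for Cldn10, 0.24 to 1.05 for Cldn11, 0.76 to 1.49 for Cldn23, -0.11 to 0.49 for Cldn9, -0.27 to 0.35 for Krt14, -0.14 to 0.48 for Krt15, -0.072 to 0.46 for Krt20, -0.077 to 0.72 for Krt7, -0.009 to 0.53 for Cldn5, 0.52 to 1.07 for Cldn6, 0.22 to 1.12 for Cldn22, 0.09 to 1.02 for Cldn3, 0.22 to 1.17 for Cldn4, -0.12 to 0.87 for Krt13, -0.09 to 0.61 for Krt19, 0.20 to 1.19 for Cldn8, 0.04 to 0.69 for Cldn7, 0.33 to 0.81 for Cldn12, 0.04 to 0.90 for Krt17, 0.01 to 0.74 for Krt18, 0.20 to 0.72 for Krt8 and 1.18 to 1.45 for Krt27. Of these Cldn11 came past the 2-fold criterion without LPS replicate 1, Cldn6 without LPS replicate 3 or saline replicate 1, and Cldn3, Cldn4 and Cldn22 without saline replicate 1. Over the whole array 186 probes were called higher and 327 lower, against 118 and 173 with quantile normalization, 1003 and 227 without normalization, 1489 and 66 with the slide row and 2 and 280 with normexp.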
